A study of Vitis vinifera with 6 samples.

Results

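Abscisic acid (ABA) metabolism was examined in young leaves of Vitis vinifera cv. Thompson Seedless that overexpressed NAC61, a grapevine NAC transcription factor, through 5 genes of ABA synthesis and degradation and the dehydrin gene DHN1b. The genes were listed by identifier, with earlier results of these arrays known. They are NCED3 (VIT_19s0093g00550), NCED2 (VIT_10s0003g03750), VIT_05s0051g00670, A8H-CYP707A2.3 (VIT_18s0001g10500), A8H-CYP707A1 (VIT_02s0087g00710) and DHN1b (VIT_04s0023g02480), 6 of the 34369 gene features on the array, each read by 1 probe. VIT_05s0051g00670 was taken as a further NCED from its listing alone, and the annotation used here gives it no name. OX.NAC61 leaves came from plantlets grown in vitro and vacuum infiltrated with Agrobacterium carrying NAC61 behind the 35S promoter, a viral promoter active in most plant cells. Control leaves came from plantlets infiltrated in the same way with the vector holding a non-coding sequence, so both groups had met the bacterium and the infiltration. There were 3 plants and 3 one-colour arrays in each group. Expression was transient, and the OX.NAC61 plants hybridised were those with the highest NAC61 transcript among the infiltrated plants, so the level of NAC61 is no independent result.

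ABA is the hormone that closes stomata and induces dehydration-response genes when plant tissue loses water. It is made from carotenoids: 9-cis-epoxycarotenoid dioxygenase (NCED) cleaves an epoxycarotenoid in the plastid in the first step committed to ABA, and short-chain dehydrogenase and aldehyde oxidase finish the molecule in the cytosol. ABA 8'-hydroxylases, cytochrome P450 enzymes of the CYP707A family described in Arabidopsis, start its breakdown. Dehydrins are hydrophilic proteins of the late embryogenesis abundant (LEA) class that accumulate in drying, cold or ABA-treated tissue.

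NAC61 itself had scaled log2 signals of -1.15, -0.66 and -0.47 on the OX.NAC61 arrays, against -2.48, -2.21 and -2.44 on the control arrays. Scaled log2 signal is the log2 of the scanner's background-subtracted signal minus the 75th percentile of the same array, so that 0 marks the 75th percentile. The groups did not overlap, and the log2 fold change was 1.62 (SE 0.21, limma adjusted p = 0.0285). Before scaling, the 75th percentile was 1772 to 2569 on the OX.NAC61 arrays and 889 to 1613 on the control arrays. All 9 leaf markers, genes of the light-harvesting complexes, photosystems and RuBisCO, were well above background on every array. So were 24501 to 28121 of the 34369 features on each array. The RuBisCO small chain was the dimmest marker, brighter than only 33.9 to 40.3% of all spots. The next dimmest, RuBisCO activase 2, lay at 78.7 to 87.0%. Of the 27052 features tested, 1843 were called, which required a limma adjusted p under 0.1 together with more than a 1.5-fold difference. That is 6.81% of those tested, 3.09% higher and 3.72% lower in OX.NAC61 leaves. An unadjusted limma p under 0.05 was found for 5513 of the 27052 features. The median log2 fold change over all features tested was -0.05. In leaf tissue as a whole, fewer cells of a type and less RNA per cell cannot be told apart.

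DHN1b was 3.78-fold higher in OX.NAC61 leaves, and it was the only one of the 6 genes that passed the test in the upward direction. Its processed signal was 278, 461 and 326 on the OX.NAC61 arrays, against 88.4, 54.7 and 30.7 on the control arrays. Every OX.NAC61 array lay above every control array; the OX.NAC61 arrays were also brighter as a whole, but the groups did not overlap after scaling either. On the scaled log2 axis DHN1b averaged -2.63 ± 0.14 in OX.NAC61 leaves and -4.55 ± 0.34 in control leaves (SD, n = 3 each). Its log2 fold change was 1.92 (SE 0.20, 95% interval 1.43 to 2.41, limma adjusted p = 0.0235). By p-value it stood 66th among the 27052 features. Within each array the DHN1b spot was brighter than 51.2 to 53.8% of all spots in OX.NAC61 leaves and than 36.5 to 41.3% in control leaves, a difference that needs no scaling. The study listed DHN1b as changed on these same arrays, so its call is not independent evidence of direction. Without control replicate 2 the adjusted p was 0.113 at a log2 fold change of 1.89; it lay between 0.0311 and 0.0829 when any other array was left out. The normexp background correction turned the DHN1b value to -0.0589 (limma adjusted p = 0.961), a setting in which no feature at all was called, and gave 0.90 (limma adjusted p = 0.0244) once local backgrounds marked as outliers were replaced by the array median.

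**Figure D1:**
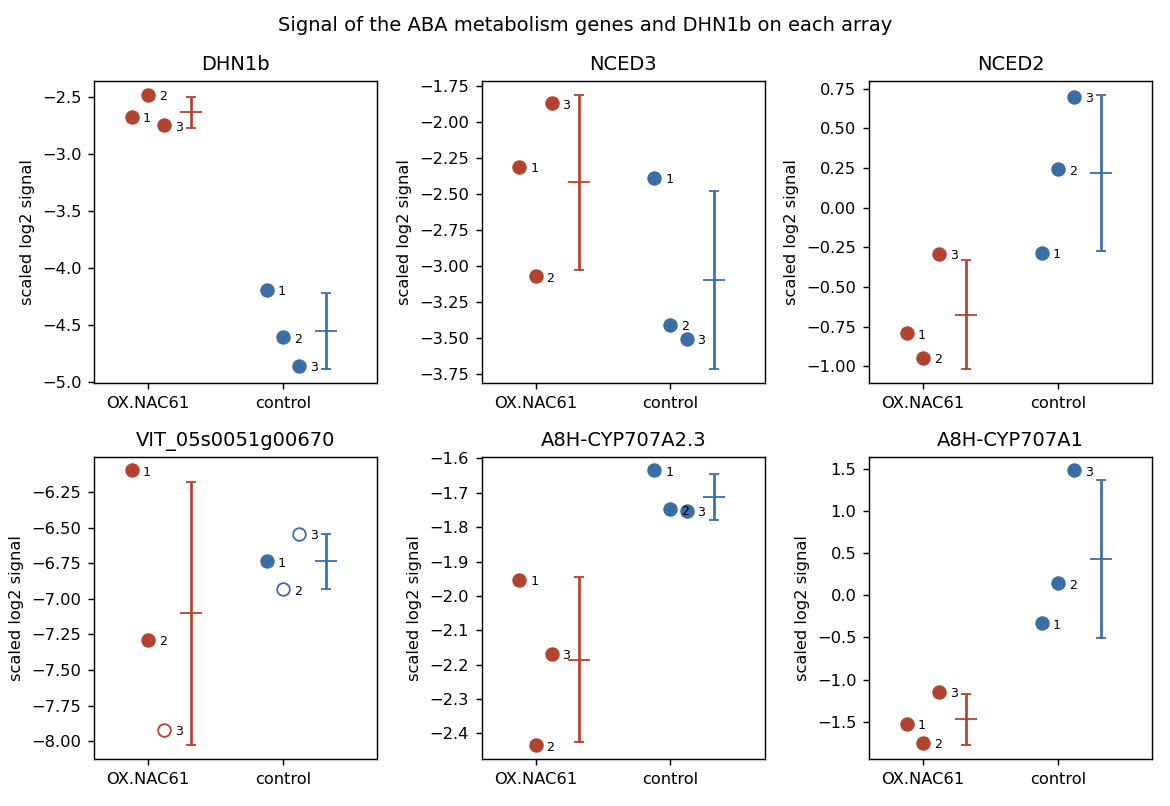
Scaled log2 signal of each gene on each array, with OX.NAC61 arrays at the left of each panel and control arrays at the right; digits are replicate numbers, bars show the mean ± SD (n = 3), open circles are spots not well above background, and each panel has its own axis. DHN1b separates upward and A8H-CYP707A1 downward, NCED2 and A8H-CYP707A2.3 sit lower in OX.NAC61 with narrow gaps, and NCED3 and VIT_05s0051g00670 overlap.

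A8H-CYP707A1, an ABA 8'-hydroxylase gene, was 3.74-fold lower in OX.NAC61 leaves and was the only one of the 6 genes called in that direction. Its processed signal was 617, 764 and 988 on the OX.NAC61 arrays, against 1281, 1464 and 2479 on the control arrays. The groups did not overlap even before scaling, although the OX.NAC61 arrays were brighter as a whole. Scaled log2 signals were -1.52, -1.75 and -1.15 in OX.NAC61 leaves, against -0.33, 0.14 and 1.48 in control leaves. The control arrays were spread widely (SD 0.94, against 0.30 in OX.NAC61, n = 3 each), with control replicate 3 standing 1.34 above the next. This amounted to a log2 fold change of -1.90 (SE 0.47, 95% interval -3.03 to -0.78, limma adjusted p = 0.0918), close to the threshold. Leaving out control replicate 3 gave -1.38, and the adjusted p was 0.126 to 0.250 when any array other than control replicate 1 was left out. Its direction was negative in all 26 alternative settings. Those that changed only the filter, the variance model or the threshold left the estimate as it was and could not turn its sign.

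A8H-CYP707A2.3, from the same enzyme family, did not pass the test. Its processed signal was 457, 475 and 486 on the OX.NAC61 arrays, against 519, 395 and 264 on the control arrays, so the unscaled signals overlapped and averaged higher in OX.NAC61. After scaling it was -1.95, -2.43 and -2.17 in OX.NAC61 leaves, against -1.64, -1.75 and -1.75 in control leaves, with no overlap. Its log2 fold change was -0.47 (SE 0.16, 95% interval -0.87 to -0.08, limma adjusted p = 0.181). Of 5 further 8'-hydroxylase genes, 4 were tested and none was called by limma, with 2 at an unadjusted p under 0.05. The one with the smallest p was A8H-CYP707A2.1 (VIT_06s0004g05050), with scaled log2 signals of -3.71, -5.83 and -4.58 in OX.NAC61 leaves, against -2.30, -1.56 and -3.18 in control leaves. Its log2 fold change of -2.36 (SE 0.62) came with a wide spread and a limma adjusted p of 0.107. Together with A8H-CYP707A4 (log2 fold change 0.75, limma adjusted p = 0.283), the tested family members ranged from -2.36 to 0.75.

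None of the 3 NCED genes passed the limma test, and only NCED2 had an unadjusted p under 0.05 (0.0225). NCED3 had processed signals of 357, 305 and 598 on the OX.NAC61 arrays, against 308, 125 and 78.2 on the control arrays. The scaled log2 signals of -2.31, -3.07 and -1.87 in OX.NAC61 leaves overlapped those of -2.39, -3.41 and -3.51 in control leaves, and control replicate 1 lay within the OX.NAC61 range. NCED3 had a log2 fold change of 0.68 (SE 0.41, 95% interval -0.32 to 1.68, limma adjusted p = 0.414). This interval includes 0.

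NCED2 leaned the other way. Its processed signal was 1023, 1332 and 1788 on the OX.NAC61 arrays, against 1324, 1572 and 1444 on the control arrays, and these overlapped. The scaled log2 signals were -0.79, -0.95 and -0.29 in OX.NAC61 leaves, against -0.28, 0.24 and 0.70 in control leaves. The groups then only just parted, by 0.00481 between OX.NAC61 replicate 3 and control replicate 1. By rank within each array they overlapped: the NCED2 spot was brighter than 66.1 to 72.3% of all spots in OX.NAC61 leaves and than 72.2 to 81.8% in control leaves. For NCED2 the log2 fold change was -0.90 (SE 0.30, 95% interval -1.62 to -0.17, limma adjusted p = 0.168). Unlike that of A8H-CYP707A1, the difference in NCED2 appeared with scaling: the mean processed signal was 1381 in OX.NAC61 leaves and 1447 in control leaves. All 26 alternative settings gave a negative value, though those of filter, variance model and threshold could not change it.

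VIT_05s0051g00670 was near the detection limit, with processed signals of 25.9, 16.5 and 9.0 on the OX.NAC61 arrays, against 15.1, 10.9 and 9.5 on the control arrays. Detection (a spot well above background) held on 2 of the OX.NAC61 arrays and 1 of the control arrays, which just met the minimum of 3. The log2 fold change of -0.37 (SE 0.45, limma adjusted p = 0.704) turned positive without OX.NAC61 replicate 3 (0.04), so a direction was not detectable at this signal.

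Over the 6 genes, 2 were called and 4 were not, where 6.81% of all features were called, and the median log2 fold change was -0.42. The groups did not overlap for 4 of the 6 after scaling, 1 higher and 3 lower. Of all features, 9.90% parted upward and 16.3% downward, 26.2% in all. On unscaled processed signal they did not overlap for 2 of the 6, DHN1b upward, as did 48.1% of all features, and A8H-CYP707A1 downward, as did 0.397%. Across the 6 arrays the scaled signals of NCED2 and A8H-CYP707A1 ran closely together (Pearson r = 0.97), and DHN1b ran against both (r = -0.90 with NCED2 and -0.94 with A8H-CYP707A1). These correlations are a description over 6 arrays that include the difference between the groups and share each array's scaling. The features with signals most like those of DHN1b were VIT_15s0021g01080 and VIT_08s0007g01110 (r = 0.996 for both, of 26985 compared), and 292 features exceeded 0.95. For A8H-CYP707A1 they were VIT_14s0036g00210 and VIT_14s0068g00130 (r = 0.998 for both), and 183 features exceeded 0.95. The annotation used here pairs none of these 4 with a name.

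For the 5 of these genes with values in the deposited log2 table, fold changes were smaller there than in the scanner values, and most so for the dim ones. DHN1b read 8.73, 8.78 and 8.73 on the OX.NAC61 arrays, against 8.14, 8.04 and 8.02 on the control arrays. The groups stayed apart and within-group spread was narrower than in the scanner values (SD 0.03 in OX.NAC61 and 0.07 in control). There the log2 fold change was 0.68 (SE 0.06, limma adjusted p = 0.0198), a 1.60-fold difference in place of 3.78-fold. DHN1b was again called, in a table where 4.42% of 26157 features were (2.03% higher and 2.40% lower), with its fold just over the limit of 1.5. A8H-CYP707A1 read 9.39, 9.19 and 9.73 on the OX.NAC61 arrays, against 10.4, 10.7 and 12.1 on the control arrays. Its log2 fold change of -1.60 (SE 0.46) was not called there (limma adjusted p = 0.128).

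Among these 5 genes, how far the 2 sets of values parted followed the brightness of the gene. The deposited log2 fold change was 35.4% of the scanner value for DHN1b, whose median signal above local background averaged 189 over the 6 arrays. It was 52.8% for NCED3 (mean signal 272), 71.0% for A8H-CYP707A2.3 (398), 84.4% for A8H-CYP707A1 (1093) and 89.4% for NCED2 (1226). NCED3 had a deposited log2 fold change of 0.36, NCED2 of -0.80 and A8H-CYP707A2.3 of -0.34, none of them called by limma. VIT_05s0051g00670 had no values in the table given here. On a linear scale the deposited values of features with a signal from 20 to 1000 lay on a straight line of signal above local background (R squared at least 0.999 on every array). The line did not pass through 0: its constant equalled 221 to 321 units of signal on the OX.NAC61 arrays and 100.1 to 188 units on the control arrays. For DHN1b on the control arrays that constant was larger than the signal, which was 92.5, 62.0 and 39.5. Adding an offset to median signal minus local background and normalising by quantiles gave the same course: the DHN1b log2 fold change was 1.502 with an offset of 16, 1.22 with 50 and 0.69 with 200. A8H-CYP707A1 gave -1.86, -1.79 and -1.56 with the same offsets.

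**Figure D2:**
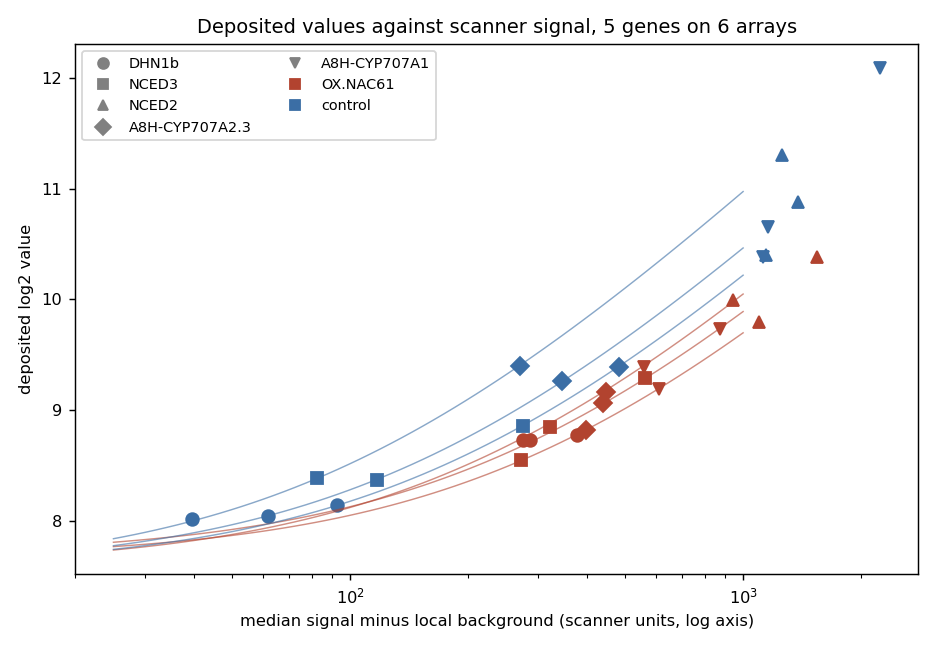
Deposited log2 value against median signal minus local background (log axis) for 5 genes, 1 point per gene and array, with OX.NAC61 in red and control in blue; lines are the straight-line fits on the linear scale for each array, drawn from 25 to 1000. The lines flatten at low signal, where the DHN1b control points lie between 8.02 and 8.14.

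Per unit of signal the lines rose by 0.629 to 0.868 on the OX.NAC61 arrays and by 1.003 to 1.83 on the control arrays. DHN1b kept its direction under both sets of values and within each array's own ranking. UBI1, a ubiquitin gene used as a reference transcript, had a log2 fold change of 0.04 in the scanner values and 0.54 in the deposited table, and EF1, an elongation factor gene, -0.25 and -0.18. Neither was called in either set, but UBI1 in the deposited table (SE 0.10, limma adjusted p = 0.0536) missed the call only on the 1.5-fold limit.

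The arrays were scanned on 2 days, and all 3 control arrays and OX.NAC61 replicate 1 belonged to the first. With OX.NAC61 replicate 1 set against the 3 control arrays of that day, the log2 difference was 1.88 for DHN1b, -1.95 for A8H-CYP707A1, -1.01 for NCED2, 0.79 for NCED3 and -0.24 for A8H-CYP707A2.3. Over all arrays DHN1b was at 1.92 and A8H-CYP707A1 at -1.90. When scan day entered the fit as a block, none of the 6 genes was called and 13 features were in all (0.0481%); the limma adjusted p was 0.198 for DHN1b and 0.424 for A8H-CYP707A1. Their unadjusted limma p-values were 0.00136 and 0.0395, and 2989 features had one under 0.05. Since no control array was scanned on the second day, an effect of that day and one of NAC61 cannot be told apart for the other OX.NAC61 arrays. By the slide record, 2 slides held arrays of both groups. On the first, the log2 difference was 2.15 for DHN1b and -2.81 for A8H-CYP707A1, and on the second 2.13 and -1.89. NCED2 differed by -1.24 and -1.19. With slide as a block, where 2.18% of features were called, DHN1b (log2 fold change 2.14, limma adjusted p = 0.0410) and A8H-CYP707A1 (-2.42, limma adjusted p = 0.0681) were called. The record gives 1 slide position to both OX.NAC61 replicate 1 and OX.NAC61 replicate 3, which were scanned on different days and hold different values (r = 0.978 across 26986 features, which are not independent).

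**Figure D3:**
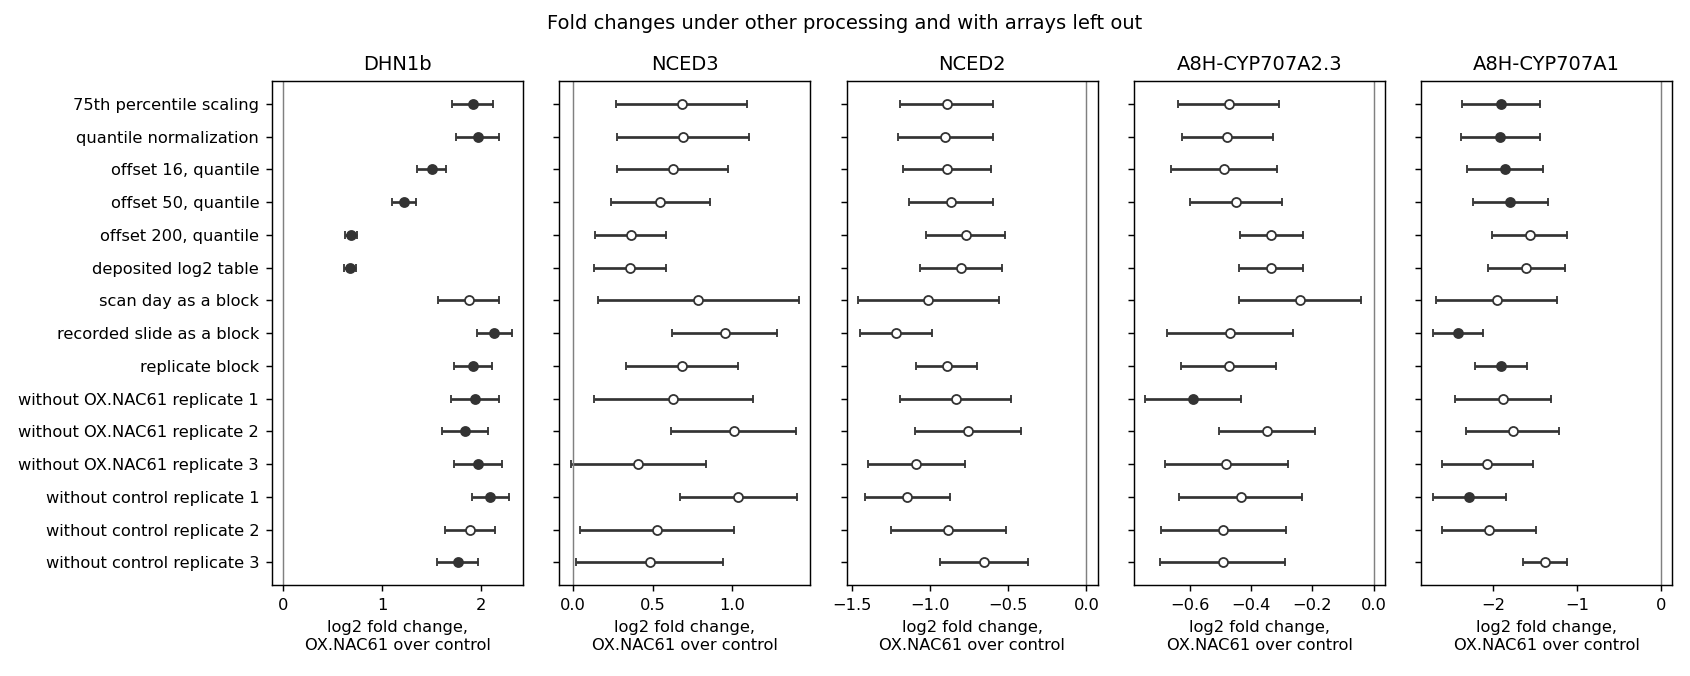
Log2 fold change, OX.NAC61 over control, with its standard error for 5 genes (columns) under other processing, batch terms and with each array left out (rows); filled circles passed the limma threshold, and the normexp correction, which turned DHN1b to -0.0589, is not among the 15 rows. DHN1b stays above 0 in every row shown and shrinks to 0.69 and 0.68 with an offset of 200 and in the deposited table, and A8H-CYP707A1 stays below 0 and is filled in 7 rows.

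Around these genes, 68 others of the ABA pathway and of dehydration response were followed, 65 of which were tested. Of these 3 were higher and 5 lower, 57 did not pass, where 3.09% of all features were called higher and 3.72% lower. The median log2 fold change was -0.12 over these genes and -0.05 over all features. The 8 called include 7 that the study itself called on these arrays, so they carry no independent evidence of direction. The count was 0 without OX.NAC61 replicate 2 or 3 or control replicate 2 or 3, with 12 or 13 at an unadjusted p under 0.05 by limma.

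Upstream of the NCED step, ZEP1 (VIT_07s0031g00620), the zeaxanthin epoxidase that supplies the epoxycarotenoid precursors, fell 1.79-fold in OX.NAC61 leaves. Its scaled log2 signals were 3.98, 3.95 and 3.95 in OX.NAC61 leaves, against 4.60, 5.004 and 4.78 in control leaves, with no overlap (log2 fold change -0.84, SE 0.15, limma adjusted p = 0.0490). ZEP1 also works in the xanthophyll cycle of photosynthetic tissue. Of the 9 leaf markers 8 were called lower as well, where 3.72% of all features were, and the median log2 fold change of the 9 was -0.98. The study also called these 8 on these arrays, so their count beside the share of all features is no independent result. The part of the leaf markers in the ZEP1 result was not tested. The other 3 genes of ABA synthesis, NSY1, ABA2 and AAO3, were not called and had log2 fold changes from -0.44 to -0.17. None of the 3 ABA glucosidase genes, whose products free ABA from its glucose ester, was called or had an unadjusted limma p under 0.05, and VIT_06s0004g01430 had the smallest p of them (log2 fold change -0.40, limma adjusted p = 0.757). The 5 other carotenoid cleavage dioxygenase genes were not called by limma either, with 2 at an unadjusted p under 0.05. CCD4a (VIT_02s0087g00910) came closest, at -0.80 (SE 0.26, limma adjusted p = 0.161).

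Among genes of ABA perception, none of 7 PYL receptor genes passed the limma test or had an unadjusted p under 0.05. PYL8 (VIT_02s0025g01340) had the smallest p of them, with a log2 fold change of -0.27 (limma adjusted p = 0.345) in the scanner values and 0.05 in the deposited table. PP2CA/AHG3 (VIT_13s0019g02200), a protein phosphatase 2C that in Arabidopsis holds ABA signalling off, fell 1.68-fold. It read -0.61, -0.79 and -0.52 in OX.NAC61 leaves, against 0.28, 0.08 and -0.05 in control leaves, without overlap (log2 fold change -0.74, SE 0.16, limma adjusted p = 0.0649). The other phosphatase and kinase genes, 4 in number, were not called. Of 11 tested bZIP factor genes, only bZIP19 (VIT_06s0080g00340) was called, 2.53-fold lower. It is a dim gene, at -4.89, -5.87 and -5.67 in OX.NAC61 leaves, against -4.57, -3.93 and -3.92 in control leaves. Its log2 fold change of -1.34 (SE 0.31, limma adjusted p = 0.0838) was -0.31 in the deposited table and not called there (limma adjusted p = 0.116).

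**Figure D4:**
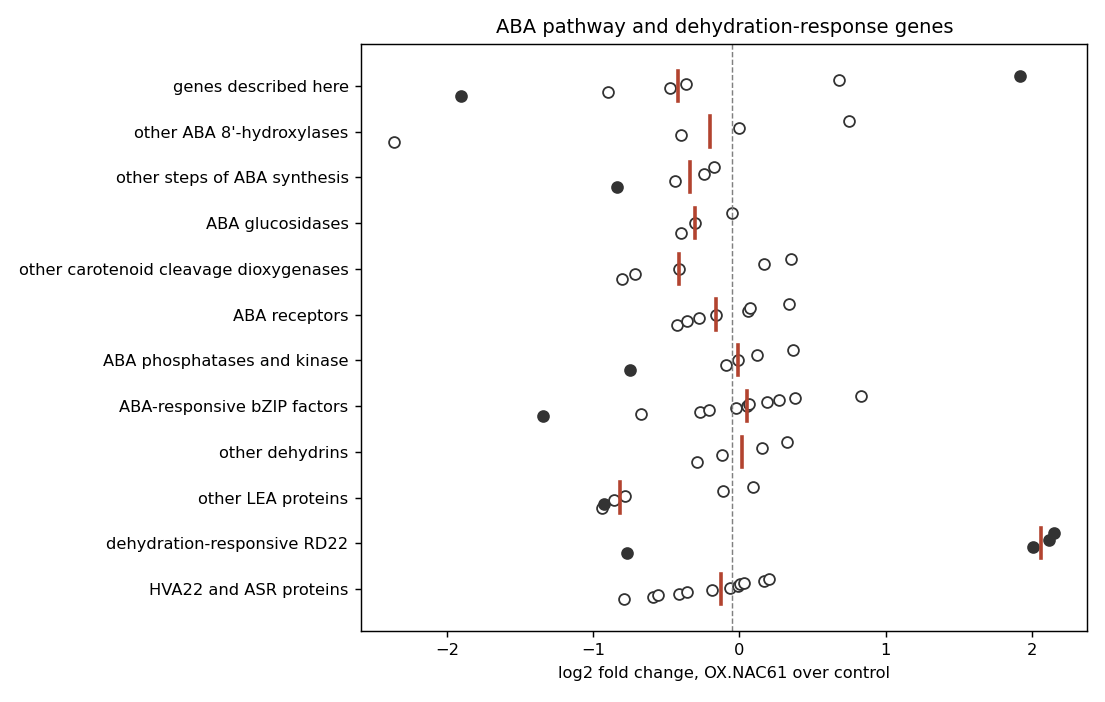
Log2 fold change, OX.NAC61 over control, of each tested gene by list (1 circle per gene; filled circles passed the limma threshold; red bars are list medians; the dashed line is the median of all features, -0.05). DHN1b at 1.92 and 3 RD22 genes from 2.01 to 2.15 are the filled circles above 0, and A8H-CYP707A1 at -1.90 is the lowest filled one.

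None of the 4 other dehydrin genes followed was called by limma or had an unadjusted p under 0.05. Their log2 fold changes were -0.29 for Dehydrin 1, -0.12 for DHN2, 0.33 for DHN3 and 0.15 for DHN4, with a median of 0.02, and the difference between them and DHN1b was not tested. Dehydrin 1 and DHN3 were both dim. Mean scaled log2 signals were -6.16 in OX.NAC61 and -5.88 in control leaves for Dehydrin 1, and -5.36 and -5.69 for DHN3. The SE of DHN3 was 0.64. Of 6 other LEA genes 1 was called, LEA group 14 (VIT_15s0046g02100), which fell 1.90-fold (log2 fold change -0.93, SE 0.22, limma adjusted p = 0.0881). Of these 6, 3 had an unadjusted limma p under 0.05. Their log2 fold changes were below 0 for 5 and above 0 for 1, with a median of -0.82. All 12 HVA22 and ASR genes, membrane-traffic and stress-ripening proteins induced by ABA in cereals and fruits, missed the limma threshold, with 2 at an unadjusted p under 0.05, and HVA22A (VIT_03s0097g00470) had the smallest p of them (-0.42, limma adjusted p = 0.170).

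The 4 RD22 genes followed, named after a dehydration-responsive gene of Arabidopsis that ABA induces, were all called, 3 higher and 1 lower. Of all features, 3.09% were called higher and 3.72% lower. VIT_04s0008g04050 read 2.79, 2.48 and 2.24 in OX.NAC61 leaves, against 1.39, -0.08 and -0.16 in control leaves. Its log2 fold change was 2.12 (SE 0.44, limma adjusted p = 0.0634), and those of VIT_04s0008g04060 and VIT_04s0008g04040 were 2.15 and 2.01. These 3 have neighbouring identifiers, and probes of near-identical copies can share signal, so they may not be 3 separate measurements. VIT_04s0008g04160 fell, at 1.40, 1.42 and 1.2 in OX.NAC61 leaves, against 2.08, 2.27 and 1.96 in control leaves (log2 fold change -0.76, SE 0.15, limma adjusted p = 0.0568). As for DHN1b, control replicate 1 was the highest control array for the 3 RD22 genes that rose. All 4 were called by the study on these arrays, so their count beside the share of all features is no independent result.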

How the data were processed

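Labelled RNA of 6 leaf samples was hybridised to one-colour Agilent arrays. Per the file headers, Feature Extraction 10.5.1.1 gave each spot an intensity with local background; the deposited intensity values were not normalised between arrays. A second table that the authors deposited holds log2 values of 26157 probes, for which the labels name limma. Within each array their ranks were those of signal above local background, and array medians differed by at most 0.0105. Ranks and medians alone do not identify the normalisation used. Here the log2 processed signal was scaled to each array's 75th percentile. Outlier spots (81 features) were set to missing. A feature entered the fit when 3 or more arrays showed it well above background (27053), and 1 of these could not be fitted. The comparison used limma 3.58.1 (R 4.3.3), two-sided, with Benjamini-Hochberg adjustment over all 27052 tested features. The fit was also run on simulated data that held no effect of scan day or array, so that run says nothing about such effects. Genes named are the 6, NAC61, and from each list those called and that with the smallest p; 2 of the 3 features most like DHN1b and A8H-CYP707A1 are given, as they have no names. The genes and lists were chosen with earlier results of these data known. By name, 3 of the 6 matched a RefSeq gene. Other scalings, background corrections, filters, batch terms and omitted arrays were tried. The number of arrays limits precision.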

Additional observations from a re-analysis of the deposited data

How the results depend on the processing

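Of 26 alternative settings, the direction held in 25 for DHN1b and NCED3 and in all for NCED2, A8H-CYP707A2.3 and A8H-CYP707A1. Settings that changed only the filter, the variance model or the threshold left these estimates as they were, so they could not turn a sign. With the normexp correction the log2 fold change was -0.0589 for DHN1b, -0.21 for NCED3 and -1.86 for A8H-CYP707A1, and limma called 0 features (3306 at an unadjusted p under 0.05) and 0 pathway genes (11). With outlier-marked local backgrounds replaced by the array median it called 5310 features and 17 pathway genes, and NCED2 (-0.87) was called. The cause was not tested. A8H-CYP707A1 was no longer called at -1.60 in the deposited table (1157 features called in all), at -1.56 with an offset of 200 (1138), at -1.90 with no filter on dim probes (5 pathway genes), nor at an adjusted p below 0.05 (-1.90; 657 features, 1 pathway gene). With scan day as a block, 13 features and 0 pathway genes were called (10 at an unadjusted p under 0.05), and within the first scan day 21 and 0 (9). Both estimates rest on OX.NAC61 replicate 1 alone against the 3 control arrays, with that lone array assumed to vary like the controls within the day; both gave 1.88 for DHN1b and -1.95 for A8H-CYP707A1, not called, and 0.64 for VIT_05s0051g00670, whose sign also turned with offsets of 16, 50 and 200 (0.103, 0.0560 and 0.0186). VIT_05s0051g00670 could not be fitted in the deposited table or with detection required on all arrays. With slide as a block, in which control replicate 1 carried no weight, 589 features and 3 pathway genes were called.

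Leaving out 1 array gave 71 to 3225 features, 0 to 10 pathway genes, and log2 fold changes of 1.76 to 2.098 for DHN1b, 0.41 to 1.04 for NCED3, -1.15 to -0.66 for NCED2, -0.59 to -0.35 for A8H-CYP707A2.3, -2.28 to -1.38 for A8H-CYP707A1 and -0.87 to 0.0442 for VIT_05s0051g00670. The lowest count of features was without control replicate 2 and the highest without OX.NAC61 replicate 1. In the latter setting A8H-CYP707A2.3 was called (-0.59) and A8H-CYP707A1 was not. The groups share replicate numbers, but arrays of one number deviated from their group means with correlations of 0.205, -0.0440 and 0.212, so the numbers were not taken as pairs. With the replicate block 1020 features and 4 pathway genes were called, and it changed no call among the 6 genes.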
